A study of Mus musculus with 20 samples.

Results

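The HoxD cluster is a row of homeobox genes on mouse chromosome 2, and 6 of its genes were followed here: Hoxd1, Hoxd3, Hoxd4, Hoxd8, Hoxd9 and Hoxd10. They were taken by gene name from the bulk RNA sequencing tables, which list 54446 gene IDs, and the 6 names cover 7 of these IDs because Hoxd4 has 2. Expression was measured in 15 libraries, 3 from each of 5 groups, all grown from 1 mouse embryonic stem cell line, F1G4, that carries the reporters T::H2B-mCherry and Sox2::H2B-Venus. Cells aggregated for 48 h and then received a pulse of 3 µM CHIR99021, a GSK3 inhibitor that activates WNT signalling. In every group, structures were picked for having an asymmetric pole.

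The group called 96h holds precursors of trunk-like structures (TLS) at 96 h, with 10 structures pooled per library. The other groups were collected at 120 h, with 6 structures pooled per library. Gastruloid libraries came from structures grown by the Beccari protocol, for which the labels name no Matrigel. TLSMG structures were embedded in Matrigel, an extract of extracellular matrix that sets as a gel. TLSMGC structures were in Matrigel with CHIR, and TLSMGCL structures in Matrigel with CHIR and LDN, an inhibitor of BMP receptors. The labels speak of 3 biological replicates and do not say whether they came from separate cultures, so p-values measure the spread between these pools, all from 1 line.

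Hox genes encode homeodomain transcription factors that give cells along the head-to-tail axis their regional identity. Within a cluster, genes at the 3′ end are switched on earlier and further towards the head than genes at the 5′ end, an order known as colinearity. In the mouse trunk, WNT signals and CDX factors act on Hox genes, retinoic acid acts mainly on those at the 3′ end, and GDF11 on those at the 5′ end. The HoxD cluster also serves the limb, kidney and genital rudiments, through regulatory regions on both of its sides.

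Levels are given as TPM, transcript abundance corrected for length and scaled to the same total in every library. Differences between groups are on the log2(TPM + 1) scale, which understates changes of genes with low TPM, and were tested with limma across the 14290 genes whose mean TPM was at least 1. A gene is said to rise, fall or change where its Benjamini-Hochberg adjusted p is under 0.05. Of the 6 genes, 5 passed the filter and were tested, and Hoxd10 did not pass. Replicates of 1 group correlated at 0.985 to 0.991 across genes, and 13 of 15 libraries were nearest to a library of their own group. Because these are bulk libraries, fewer cells of a type and less RNA per cell cannot be told apart.

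The 5 tested genes moved in different directions. From 96h to the 120 h groups Hoxd1 and Hoxd3 fell in all 4 comparisons, while Hoxd8 and Hoxd9 rose in TLSMG and TLSMGC. Among the 120 h groups, Hoxd8 was highest in TLSMG and Hoxd9 in TLSMGC, and both fell when LDN was added. In the F test over all 5 groups 4 of the 5 tested genes passed, where 73.5% of all tested genes did; Hoxd4 did not pass, with an adjusted p of 0.0571. In the F test over the 4 groups at 120 h 3 of the 5 passed, Hoxd1, Hoxd8 and Hoxd9, where 62.7% of all tested genes did.

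**Figure D1:**
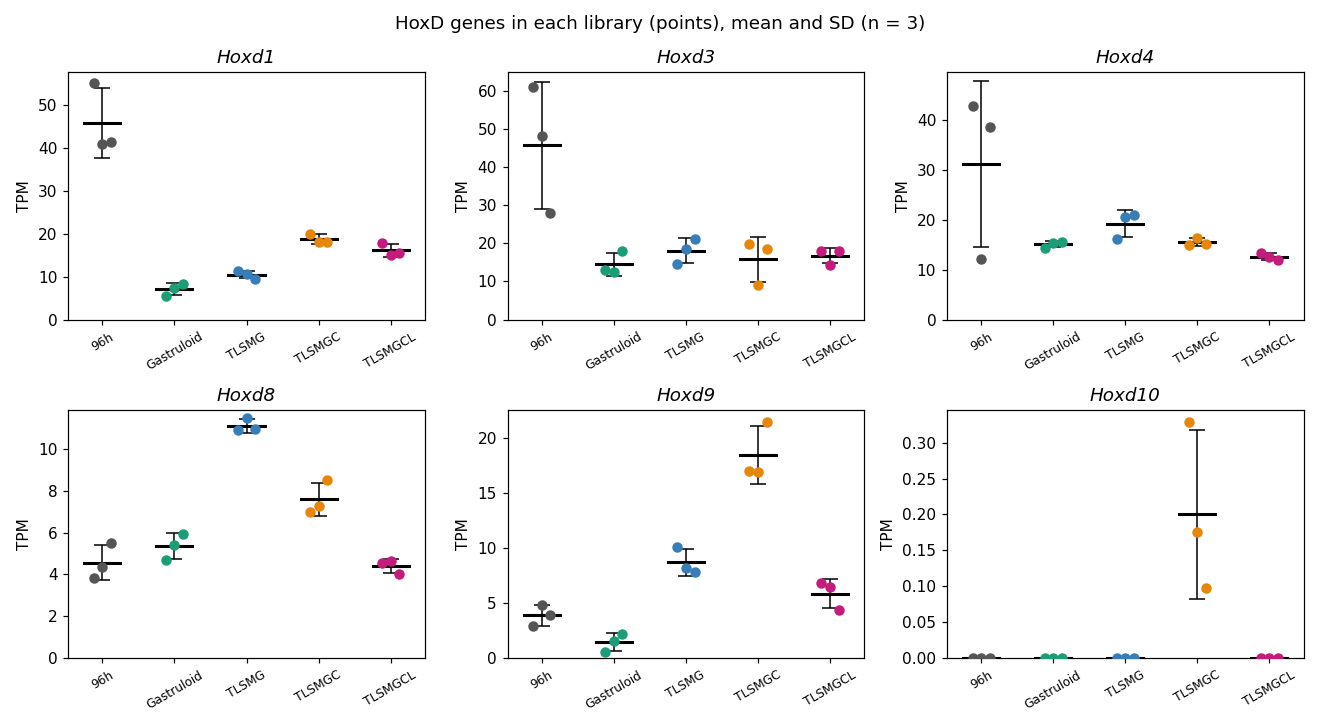
Level of each HoxD gene in every library, in TPM on a linear axis that starts at 0, with 1 point per library and black bars for the mean and SD (n = 3) of each of the 5 groups. Hoxd1 is highest at 96 h, Hoxd8 in TLSMG and Hoxd9 in TLSMGC, and Hoxd10 is above 0 in the 3 TLSMGC libraries only, at 0.097 to 0.329 TPM.

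Read as a cluster, the tested genes passed in different numbers and directions. From 96h to Gastruloid 3 of 5 fell and none rose, where 41.2% of all genes were called in either direction, 20.5% lower and 20.8% higher, and their median log2 difference was -1.04 against 0.00 over all genes. In 3 of 5 the libraries of these groups did not overlap, as in 56.8% of all genes. From 96h to TLSMG 2 fell and 2 rose, with 46% of all genes called, 12.5% lower and 33.5% higher, and 4 of 5 did not overlap, as in 58.4% of all genes. From 96h to TLSMGC also 2 fell and 2 rose, with 40.7% of all genes called, 20.1% lower and 20.6% higher, and 4 of 5 did not overlap, as in 52.3% of all genes. From 96h to TLSMGCL 3 fell and none rose, with 39.5% of all genes called, 22.1% lower and 17.4% higher, and 2 of 5 did not overlap, as in 51.4% of all genes. The median difference of the 5 genes was -0.50 in TLSMG, -0.78 in TLSMGC and -1.07 in TLSMGCL, against 0.14, 0.02 and -0.02 over all genes. These 4 comparisons share the 96h libraries.

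With Matrigel, from Gastruloid to TLSMG, 3 of 5 rose (Hoxd1, Hoxd8 and Hoxd9), where 39.3% of all genes were called, 31.5% higher and 7.87% lower, and 4 of 5 did not overlap, as in 52.3% of all genes. With CHIR, from TLSMG to TLSMGC, Hoxd1 and Hoxd9 rose and Hoxd8 fell, with 40.9% of all genes called, 10.4% higher and 30.5% lower, and 3 of 5 did not overlap, as in 52.4% of all genes. With LDN, from TLSMGC to TLSMGCL, 2 of 5 fell, Hoxd8 and Hoxd9, where 1.18% of all genes were called, 0.406% higher and 0.777% lower, and 4 of 5 did not overlap, as in 15.8% of all genes. The median difference of the 5 genes was 0.52 with Matrigel, -0.24 with CHIR and -0.29 with LDN, against 0.13, -0.16 and -0.04 over all genes. With CHIR it was -0.10 under median-of-ratios scaling, against -0.03 over all genes.

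**Figure D2:**
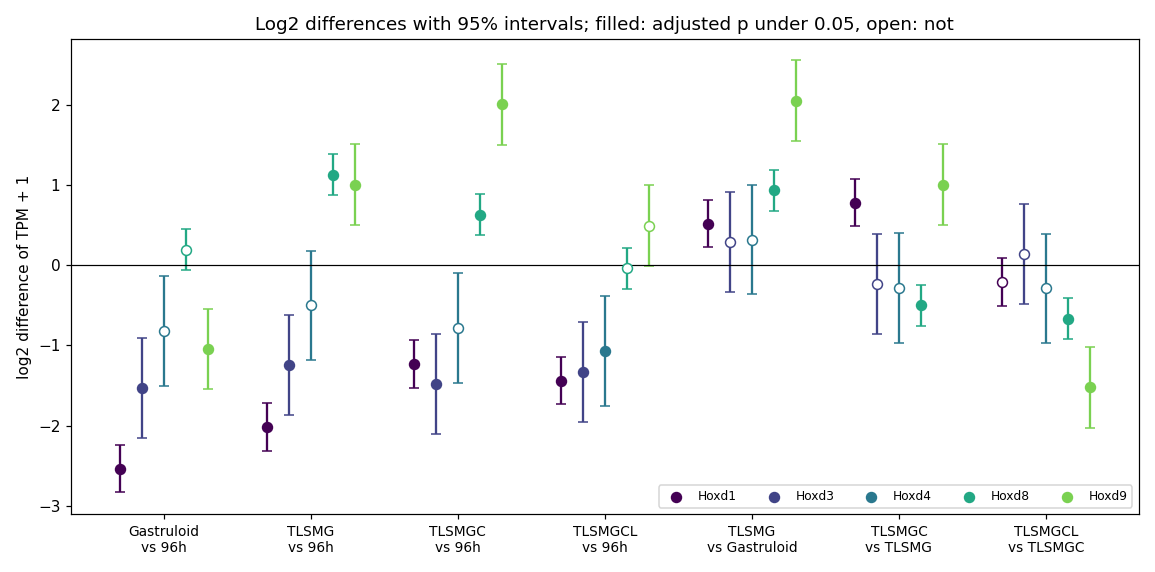
Log2 difference of TPM + 1 (y axis) for the 5 tested HoxD genes in each of the 7 comparisons (x axis), with 95% intervals; filled points have an adjusted p under 0.05. Hoxd1 and Hoxd3 lie under 0 in all 4 comparisons with 96h, and Hoxd9 changes from 1.00 with CHIR to -1.52 with LDN.

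Hoxd1 is the gene at the 3′ end of the cluster, a member of the paralog group that patterns the hindbrain. Its gene ID in the tables is ENSMUSG00000042448.5, and it lies on the forward strand at chr2:74762980-74765142 in mm10 (GRCm38), the build of the tables, and shares no exon bases with another gene of the annotation. At 96 h its level was 55.1, 40.9 and 41.3 TPM in the 3 libraries. In Gastruloid it was 5.54, 7.34 and 8.31 TPM, the lowest of the 5 groups. In TLSMG it was 11.3, 10.6 and 9.53 TPM. No library of any group overlapped with the next group in the order of levels. TLSMGC libraries held 20.0, 18.1 and 18.0 TPM and TLSMGCL libraries 17.9, 15.1 and 15.5 TPM, so both groups grown with CHIR lay between 96h and TLSMG.

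The mean level of Hoxd1 at 96 h, 45.8 ± 8.12 TPM (SD, n = 3), was 6.48 times that in Gastruloid. The log2 difference was -2.54 ± 0.14 (SE; adjusted p = 7.46e-09). The difference from 96h was -2.02 in TLSMG (adjusted p = 7.18e-08), -1.23 in TLSMGC (adjusted p = 1.05e-05) and -1.44 in TLSMGCL (adjusted p = 2.48e-06). Among the 120 h groups Hoxd1 rose by 0.52 from Gastruloid to TLSMG (adjusted p = 0.00936) and by 0.78 from TLSMG to TLSMGC (adjusted p = 0.000556). The first of these was 0.33 on FPKM (adjusted p = 0.0489), so its size depends on the scaling, and its adjusted p ran from 0.00287 to 0.0489 over all alternatives. With LDN the difference was -0.21 (95% interval -0.50 to 0.09; adjusted p = 0.585), although the 3 libraries of each group did not overlap.

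The start of Hoxd1 faces that of Haglr, a long noncoding RNA gene on the reverse strand at chr2:74748422-74762896. The 83 bases between the starts of both genes are shown in capitals in the promoter window of Hoxd1, from 250 bases before its start to 50 after it, at chr2:74762730-74763029 on the forward strand (RefSeq, GRCm38.p6), because both genes are transcribed away from them.
Hoxd1 promoter: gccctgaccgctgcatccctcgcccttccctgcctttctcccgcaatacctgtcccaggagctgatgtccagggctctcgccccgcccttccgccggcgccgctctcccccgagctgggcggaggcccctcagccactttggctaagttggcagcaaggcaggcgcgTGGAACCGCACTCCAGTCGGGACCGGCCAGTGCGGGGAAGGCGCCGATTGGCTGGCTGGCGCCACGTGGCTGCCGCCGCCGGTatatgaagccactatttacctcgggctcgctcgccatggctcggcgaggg
Of this window 69.7% was G or C, where the median over 32817 such windows was 52.7%. On both strands of each window 4 short motifs were searched: TTTATG (bound by CDX factors), CTTTGAT (bound by TCF/LEF factors of the WNT pathway), AGGTCA and AGTTCA (bound by nuclear receptors, among them those of retinoic acid). None of the 4 was found in the Hoxd1 window.

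Haglr was measured at 15.5, 13.2 and 13.6 TPM at 96 h and at 2.86, 7.05 and 6.21 TPM in Gastruloid. It stood at 6.17, 5.46 and 6.53 TPM in TLSMG, with overlap between both groups grown without CHIR at 120 h. With CHIR it was 22.7, 18.6 and 21 TPM in TLSMGC and 19.0, 16.4 and 17.6 TPM in TLSMGCL, above every library of the other groups. Haglr fell from 96h to Gastruloid by 1.31 (adjusted p = 0.000182) and to TLSMG by 1.10 (adjusted p = 0.000646), as Hoxd1 did. It rose by 1.62 from TLSMG to TLSMGC (adjusted p = 3.53e-05), and its difference between TLSMGC and 96h was 0.53 (adjusted p = 0.0544). The level of Hoxd1 per unit of Haglr was 3.23 ± 0.28 at 96 h, 1.44 ± 0.46 in Gastruloid and 1.74 ± 0.25 in TLSMG. It was 0.905 ± 0.062 in TLSMGC and 0.911 ± 0.032 in TLSMGCL (SD, n = 3 each), so in all 6 libraries grown with CHIR to 120 h the noncoding gene was above Hoxd1. Over the 15 libraries the log2 levels of both genes correlated at r = 0.676, a description over points that share groups.

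**Figure D3:**
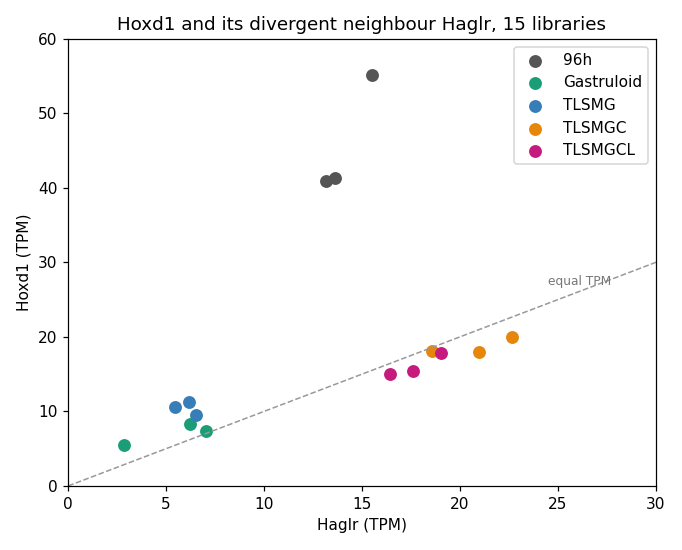
Level of Hoxd1 against that of Haglr in the 15 libraries (TPM on both linear axes), 1 point per library coloured by group, with a dashed line where both are equal. The 96h libraries lie far above the line, with Hoxd1 at 40.9 to 55.1 TPM, and the 6 libraries grown with CHIR to 120 h lie below it.

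Hoxd3 (ENSMUSG00000079277.9, chr2:74711927-74748442) and Hoxd4 (ENSMUSG00000101174.7, chr2:74711929-74729123), members of the groups that pattern the neck vertebrae and hindbrain, overlap in these gene models. Of the exon bases of Hoxd3 53.1% lie in exons of Gm28230 and 9.26% in those of Hoxd4, and of the exon bases of Hoxd4 39.1% lie in Gm28230. Exon bases were counted in a GENCODE release that merges the Hoxd4 IDs, so shares with Hoxd4 can differ from those for the tested ID. Reads there can be divided between genes, so single values of Hoxd3 and Hoxd4 are uncertain. Both also share 347 exon bases with the antisense gene Hoxd3os1, and the strand setting of the assembly is not given in the sources used here.

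At 96 h Hoxd3 was measured at 60.9, 48.1 and 27.9 TPM. In Gastruloid it was 13.1, 12.6 and 18.0 TPM, and in TLSMG 14.6, 18.5 and 21 TPM. The TLSMGC libraries held 19.9, 9.08 and 18.4 TPM and the TLSMGCL libraries 17.9, 14.4 and 17.9 TPM. Every 96h library was above every library at 120 h, and each 120 h group overlapped with the next in the order of levels. Hoxd3 fell from 96h by 1.53 in Gastruloid (adjusted p = 0.000859), 1.24 in TLSMG (adjusted p = 0.00324), 1.48 in TLSMGC (adjusted p = 0.00113) and 1.33 in TLSMGCL (adjusted p = 0.00241), with an SE of 0.29 in each. No difference among the 120 h groups passed the test. Their intervals were wide, from -0.33 to 0.92 for Matrigel, -0.86 to 0.39 for CHIR and -0.48 to 0.77 for LDN.

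Hoxd4 was measured at 43.0, 12.2 and 38.7 TPM at 96 h, so 1 library lay far under the other two. That library, replicate 2, was not the one with the lowest Hoxd3, which was replicate 3. In Gastruloid Hoxd4 was 14.5, 15.4 and 15.6 TPM, and in TLSMG 16.1, 20.7 and 21.1 TPM. It was 15.0, 16.5 and 15.2 TPM in TLSMGC and 13.3, 12.6 and 11.9 TPM in TLSMGCL, the lowest mean of the 5 groups. The second gene ID named Hoxd4 (chr2:74721978-74729160) stayed at 0.24 to 0.939 TPM in all libraries. From 96h the difference was -0.82 in Gastruloid (adjusted p = 0.0526), -0.50 in TLSMG (adjusted p = 0.218) and -0.78 in TLSMGC (adjusted p = 0.0635). In TLSMGCL it was -1.07 (adjusted p = 0.0158), with overlapping ranges.

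These calls rest on single 96h libraries. Without 96h replicate 2 Hoxd4 fell by 1.37 in Gastruloid (adjusted p = 1.38e-06), 1.05 in TLSMG (adjusted p = 1.25e-05), 1.34 in TLSMGC (adjusted p = 2.07e-06) and 1.62 in TLSMGCL (adjusted p = 3.65e-07). Without 96h replicate 1 or replicate 3 the TLSMGCL call was lost, with adjusted p-values of 0.0797 and 0.0744. Over all alternatives the adjusted p of Hoxd4 ran from 1.38e-06 to 0.229 for Gastruloid against 96h, from 1.25e-05 to 0.667 for TLSMG, from 2.07e-06 to 0.267 for TLSMGC, and from 3.65e-07 to 0.0931 for TLSMGCL. When Hoxd3, both Hoxd4 IDs and Gm28230 were added into 1 locus, an alternative chosen after seeing the data, its level was 109.8, 68.3 and 69.6 TPM at 96 h. The means at 120 h were 32.0 ± 2.99 TPM in Gastruloid, 42.5 ± 5.61 TPM in TLSMG, 33.4 ± 5.87 TPM in TLSMGC and 32.4 ± 3.66 TPM in TLSMGCL (SD, n = 3 each). The summed locus fell from 96h to Gastruloid by 1.31 (adjusted p = 5.47e-05), to TLSMG by 0.91 (adjusted p = 0.000865), to TLSMGC by 1.26 (adjusted p = 7.68e-05) and to TLSMGCL by 1.29 (adjusted p = 6.43e-05).

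Hoxd8 (ENSMUSG00000027102.4, chr2:74704615-74707933) belongs to the central group of Hox genes, which pattern the thorax, and shares no exon bases with another gene. At 96 h it was measured at 3.83, 4.38 and 5.51 TPM, and in Gastruloid at 4.69, 5.43 and 5.94 TPM, with overlap. In TLSMG it stood at 10.9, 11.5 and 11.0 TPM, above every other library. The TLSMGC libraries held 7.00, 7.28 and 8.52 TPM and the TLSMGCL libraries 4.54, 4.65 and 4.03 TPM. The TLSMGCL and 96h libraries overlapped, and TLSMGC lay between TLSMG and all others.

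Hoxd8 rose from 96h to TLSMG by 1.13 ± 0.12 (SE; adjusted p = 4.64e-06), a mean level 2.43 times as high, and to TLSMGC by 0.63 (adjusted p = 0.000804). Its difference from 96h was 0.20 in Gastruloid (95% interval -0.06 to 0.45) and -0.03 in TLSMGCL (95% interval -0.29 to 0.22), neither past the test. At 120 h it rose with Matrigel by 0.94 (adjusted p = 0.000148), fell by 0.50 with CHIR (adjusted p = 0.00439) and fell by 0.67 with LDN (adjusted p = 0.0153). On FPKM the limma difference was 0.70 with Matrigel (adjusted p = 0.000543) and -0.36 with CHIR (adjusted p = 0.0161), so their size depends on the scaling. The LDN call on Hoxd8 was lost in 4 alternatives, and over all of them its adjusted p ran from 0.00792 to 0.124. Its adjusted p was 0.0523 without TLSMGC replicate 2, 0.0516 without TLSMGCL replicate 1, 0.0707 without TLSMGCL replicate 3, and 0.124 with only the 2 groups compared in the fit.

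Hoxd9 (ENSMUSG00000043342.9, chr2:74697727-74700208), of a group that patterns the lower trunk and the limbs, ran from 0.573 to 21.5 TPM over the 120 h libraries and shares no exon bases with another gene. At 96 h it was measured at 2.88, 4.80 and 3.90 TPM, and in Gastruloid at 0.573, 1.53 and 2.16 TPM, all 3 lower. In TLSMG it was 10.1, 8.23 and 7.80 TPM and in TLSMGC 17.0, 16.9 and 21.5 TPM, above every other library. In TLSMGCL it was 6.79, 6.45 and 4.31 TPM, a group that overlapped with 96h and lay under TLSMG.

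From 96h Hoxd9 fell by 1.04 in Gastruloid (adjusted p = 0.00293) and rose by 1.01 in TLSMG (adjusted p = 0.00315) and by 2.01 in TLSMGC (adjusted p = 1.55e-05), with an SE of 0.24 in each. Its mean in TLSMGC was 4.79 times that at 96 h. The difference of 0.50 between TLSMGCL and 96h did not pass (adjusted p = 0.111), but did without Gastruloid replicate 1 (adjusted p = 0.0488, with a range of 0.0488 to 0.33 over all alternatives). At 120 h Hoxd9 rose by 2.05 with Matrigel (adjusted p = 8.82e-05) and by 1.00 with CHIR (adjusted p = 0.00395). On FPKM the rise with Matrigel was 1.545 (adjusted p = 0.000174). Hoxd9 fell by 1.52 with LDN (adjusted p = 0.00706), a mean 3.16 times lower. This fall stayed past the threshold in every alternative that was run, with adjusted p-values from 0.00175 to 0.0388. Hoxd9 and Hoxd8 thus moved in opposite directions when CHIR was added, and the level of Hoxd9 per unit of Hoxd8 was 0.782 ± 0.12 in TLSMG and 2.43 ± 0.104 in TLSMGC (SD, n = 3 each).

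The promoter windows of Hoxd8 and Hoxd9 are given next, as these neighbours changed in opposite directions with CHIR. They run from 250 bases before the RefSeq start to 50 after it on the forward strand, at chr2:74704365-74704664 and chr2:74697513-74697812 (GRCm38.p6), and capitals mark the motifs named above. The RefSeq start of Hoxd8 is that of the tables, and the RefSeq start of Hoxd9 lies 36 bases inside the gene of the tables.
Hoxd8 promoter: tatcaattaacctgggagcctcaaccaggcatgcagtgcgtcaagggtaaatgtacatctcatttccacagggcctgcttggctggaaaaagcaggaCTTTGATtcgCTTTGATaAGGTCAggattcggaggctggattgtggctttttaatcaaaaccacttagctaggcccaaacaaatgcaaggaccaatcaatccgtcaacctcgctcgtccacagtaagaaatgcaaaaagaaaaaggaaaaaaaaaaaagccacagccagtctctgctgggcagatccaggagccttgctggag
Hoxd9 promoter: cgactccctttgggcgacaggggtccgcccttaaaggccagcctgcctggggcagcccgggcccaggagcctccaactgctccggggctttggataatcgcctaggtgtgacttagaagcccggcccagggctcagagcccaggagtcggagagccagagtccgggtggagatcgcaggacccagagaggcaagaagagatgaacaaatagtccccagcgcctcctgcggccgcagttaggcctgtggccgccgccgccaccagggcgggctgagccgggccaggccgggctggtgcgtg
The Hoxd8 window holds CTTTGAT at positions 98 to 104 and 108 to 114, counted from its first base, and AGGTCA at 116 to 121. Of all 32817 windows 3.7% hold CTTTGAT and 16.3% hold AGGTCA on either strand. In the Hoxd9 window, of which 68.3% is G or C against 46.7% in that of Hoxd8, none of the 4 motifs was found. AGGTCA was also found, on the opposite strand, in the windows of Hoxd3, Hoxd4 and Hoxd10, so 4 of the 6 windows hold it. TTTATG, held by 11.9% of all windows, was found in those of Hoxd3 and Hoxd4. The Hoxd4 window is built on the start of its second gene ID, the one at under 1 TPM, and not on that of the tested ID. A match is a description of letters, not of binding.

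Hoxd10, which patterns the lumbar region and the limb, has the gene ID ENSMUSG00000050368.4 and lies at chr2:74691924-74695105. It was listed at 0 in 12 of the 15 libraries. The other 3 were all TLSMGC libraries, at 0.329, 0.175 and 0.097 TPM. The deposited coverage times the exon length gives 900, 738 and 374 aligned bases over 1816 exon bases, so these values rest on few reads. As a listed 0 can be a failed estimate, no fold is given. In the limma fit with no filter on low values the difference was 0.26 from 96h to TLSMGC (adjusted p = 0.00217). It was 0.26 from TLSMG to TLSMGC (adjusted p = 0.00237) and -0.26 from TLSMGC to TLSMGCL (adjusted p = 0.0455). Each set TLSMGC against a group listed at 0 in all 3 libraries. As every group but TLSMGC had no spread, these p-values cannot decide whether Hoxd10 differs, and no call is drawn from them. The genes further to the 5′ end were near 0 throughout: Hoxd11 was above 0 in 1 library, TLSMGC replicate 3 (0.223 TPM), and Hoxd13 reached at most 0.386 TPM, at 96 h.

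The composition of the cluster's RNA differed between the groups, and no test was made of it. Hoxd8, Hoxd9 and Hoxd10 together made up 6.75 ± 2.35% of the summed HoxD level at 96 h and 15.3 ± 1.49% in Gastruloid (SD, n = 3 each). The share was 29.1 ± 3.33% in TLSMG and 34.3 ± 3.21% in TLSMGC, with overlap between these groups. It was 18.3 ± 2.71% in TLSMGCL. All 3 TLSMGCL libraries, at 15.4% to 20.8%, were under all 3 TLSMGC libraries, at 30.6% to 36.6%. The summed level itself was 131.8 TPM at 96 h and 44.0 to 76.8 TPM in the means of the 120 h groups, and from 96h to Gastruloid, where the share was higher, Hoxd9 fell and Hoxd8 did not pass the test.

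**Figure D4:**
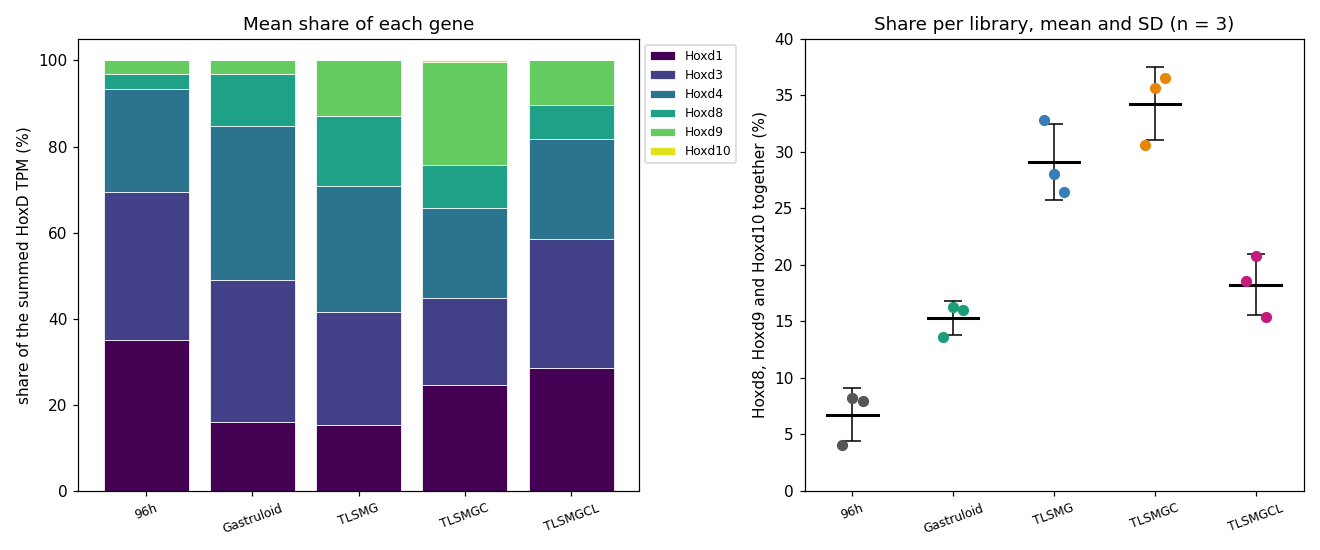
Left, mean share of each HoxD gene in the summed HoxD level (%, stacked bars) for the 5 groups; right, share of Hoxd8, Hoxd9 and Hoxd10 together per library (points) with mean and SD (n = 3). The right side runs from 4.04% in 1 of the 96h libraries to 36.6% in 1 of the TLSMGC libraries, and the TLSMGCL libraries lie at 15.4% to 20.8%.

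Hoxd9 and Hoxd8 were then set beside their paralogs in the HoxA, HoxB and HoxC clusters, genes of the same ancestral position. Hoxb9 was the most abundant of its group, with 34.8, 51.6 and 71.1 TPM at 96 h, 354.3, 311.7 and 301.9 TPM in Gastruloid, and 93.9, 101.0 and 110.3 TPM in TLSMGC. From 96h to Gastruloid Hoxa9 rose by 3.19 (adjusted p = 1.07e-07), Hoxb9 by 2.65 (adjusted p = 1.38e-07) and Hoxc9 by 4.15 (adjusted p = 2.78e-09), while Hoxd9 fell by 1.04. With Matrigel the differences were 0.38, -0.16 and -0.16 for Hoxa9, Hoxb9 and Hoxc9, none of which passed, against the rise of 2.05 in Hoxd9. With CHIR Hoxa9 fell by 0.74 (adjusted p = 0.0179), Hoxb9 by 1.50 (adjusted p = 3.93e-05) and Hoxc9 by 1.52 (adjusted p = 6.1e-05), while Hoxd9 rose. With median-of-ratios scaling the fall of Hoxa9 was 0.60 and did not pass (adjusted p = 0.0634). With LDN the differences were -0.32, -0.08 and -0.08, none past the test, against the fall of 1.52 in Hoxd9.

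The difference between Hoxd9 and the mean of its 3 paralogs was computed in each library on the log2(TPM + 1) scale. It was 0.07 ± 0.21 at 96 h, -4.30 ± 0.58 in Gastruloid, -2.27 ± 0.26 in TLSMG, -0.01 ± 0.29 in TLSMGC and -1.37 ± 0.15 in TLSMGCL (SD, n = 3 each). At 96 h Hoxa9 stood at 0 to 0.0914 TPM and Hoxc9 at 0.664 to 0.919 TPM, so these 2 paralogs were under 1 TPM there. Groups did not overlap in any of the 5 comparisons made of this difference from the paralogs, nor in the same 5 for Hoxd8 against Hoxb8 and Hoxc8. An exact two-sided permutation test gave p = 0.1 in all 10, the smallest that 3 against 3 libraries allow, and 0.1 after Benjamini-Hochberg adjustment, so none passed 0.05. For Hoxd8 the difference was -2.17 ± 0.11 in TLSMG and -1.06 ± 0.28 in TLSMGC. Hoxb8 and Hoxc8 fell by 1.83 and 1.39 with CHIR, against 0.50 for Hoxd8.

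**Figure D5:**
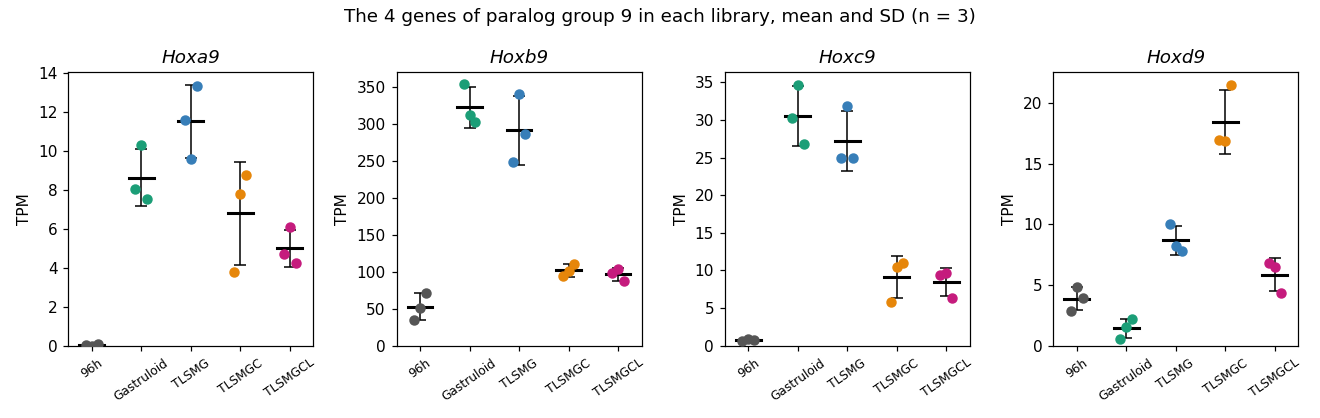
Level of the 4 genes of paralog group 9 in every library (TPM, linear axes from 0 that differ between panels), with black bars for the mean and SD (n = 3) of each of the 5 groups. Hoxa9, Hoxb9 and Hoxc9 are high in Gastruloid and TLSMG, while Hoxd9 is lowest in Gastruloid and highest in TLSMGC.

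Over all other Hox genes, 22 of the 30 in clusters A, B and C were tested. From 96h to Gastruloid 11 rose and 5 fell, where 20.8% of all genes rose and 20.5% fell. From 96h to TLSMG 14 rose and 4 fell, where 33.5% of all genes rose and 12.5% fell. With Matrigel 8 of 22 rose and none fell, where 31.5% of all genes rose and 7.87% fell. Under median-of-ratios scaling, which moved the median of all genes from 0.13 to -0.02, 4 of the 22 rose and 1 fell there. With CHIR 19 of 22 fell and 1 rose, Hoxb1 by 0.57 (adjusted p = 0.00141), a paralog of Hoxd1. Of all genes 30.5% fell and 10.4% rose there. Under the other scaling, where the median of all genes moved from -0.16 to -0.03, 14 of the 22 fell and 1 rose. With LDN limma called none of the 22, where 1.18% of all genes were called. Of these 22 genes 2 had an unadjusted p under 0.05, and the differences ran from -0.32 to 0.58.

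The genes beside the cluster gave a mixed picture. Mtx2, a mitochondrial outer membrane gene next to Hoxd1, rose with Matrigel by 0.38 (adjusted p = 0.000848) and stood at 44.1 to 47.8 TPM at 96 h and 55.8 to 60.3 TPM in TLSMG. Lnpk, which encodes an endoplasmic reticulum protein and lies on the 5′ side, fell from 96h to Gastruloid by 0.66 (adjusted p = 0.0078) and rose with Matrigel by 0.86 (adjusted p = 0.00204). With LDN none of the 5 tested neighbours passed, and 1 had an unadjusted p under 0.05; Mtx2 differed by -0.23 (adjusted p = 0.127).

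Known regulators of Hox genes moved beside these results, and their part was not tested. The shares of all genes called, given with the HoxD counts above, also stand beside the counts of regulators and cell type markers. From 96h to Gastruloid 10 of 14 signals and factors fell and 2 rose, among them Cdx1, which fell by 5.42 (adjusted p = 1.88e-10), Wnt3a, which fell by 3.99 (adjusted p = 4.64e-10), and Aldh1a2, the retinoic acid synthesis enzyme, which fell by 4.83 (adjusted p = 8.66e-12). Gdf11 rose in all 4 comparisons with 96h, by 0.96, 1.66, 0.95 and 0.60. With Matrigel Gdf11 rose by 0.70 (adjusted p = 0.000661). With CHIR, where Hoxd1 and Hoxd9 rose and Hoxd8 fell, 4 of 14 rose and 5 fell. Those that rose were Cdx1, by 5.12 (adjusted p = 6.18e-10), Aldh1a2, by 1.85 (adjusted p = 1.15e-07), Wnt3a and T. Those that fell were Gdf11, with a log2 difference of -0.716 (adjusted p = 0.000315), Wnt5a, Cyp26a1, Rara and Rarb. Gdf11 and Hoxd9 both rose with Matrigel, while with CHIR Gdf11 fell and Hoxd9 rose, and a link between them was not tested. With LDN 1 of 14 rose, Aldh1a2 by 0.82 (adjusted p = 0.00556), and none fell.

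Markers of cell types also changed between the groups, some in the direction of the HoxD genes and some in the other. In the comparisons with 96h, where Hoxd1 and Hoxd3 fell, 12 of 12 presomitic and tailbud genes fell in Gastruloid and TLSMG and 11 of 12 in TLSMGC and TLSMGCL, their summed level being 1724 to 2219 TPM at 96 h and 191.7 to 301.9 TPM in Gastruloid. From 96h to TLSMG, where Hoxd9 rose, 1 of 4 tested intermediate mesoderm genes rose and 1 fell, and their summed level was 58.3 to 70.2 TPM at 96 h and 23.9 to 32.9 TPM in TLSMG.

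With Matrigel, where Hoxd1, Hoxd8 and Hoxd9 rose, 4 of 4 tested intermediate mesoderm genes rose, their summed level going from 6.61 to 7.3 TPM in the Gastruloid libraries to 23.9 to 32.9 TPM in TLSMG. In the same comparison 8 of 9 endothelial genes rose, from 34.6 to 45.8 TPM to 267.3 to 324.3 TPM. Of 9 tested neural tube genes 4 fell (Sox3, Pax6, Irx3 and Hes5), and 7 fell under median-of-ratios scaling, their sum going from 400.2 to 548.9 TPM to 213.6 to 323.4 TPM. Of 10 tested somite genes 3 fell (Pax1, Pax9 and Tcf15) and 1 rose (Meox2), while 5 fell and 1 rose under the other scaling.

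With CHIR, where Hoxd1 and Hoxd9 rose and Hoxd8 fell, 7 of 12 presomitic and tailbud genes rose and 1 fell, from 255.9 to 323.2 TPM to 475.9 to 606.7 TPM, and 7 of 9 neural tube genes fell, from 213.6 to 323.4 TPM to 63.9 to 78.2 TPM. All 9 endothelial genes fell with CHIR, from 267.3 to 324.3 TPM to 25.1 to 84.5 TPM. Of the 4 intermediate mesoderm genes 2 rose (Pax2 by 1.06, Lhx1 by 0.77) and 2 fell (Osr1 by 1.71, Wt1 by 2.82), and the summed level was 18.5 to 26.8 TPM in TLSMGC.

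With LDN, where Hoxd8 and Hoxd9 fell, 3 of 4 tested intermediate mesoderm genes fell. The sum of the list went from 18.5 to 26.8 TPM to 5.41 to 7.45 TPM, with Pax2 at 5.53 TPM in TLSMGC and 0.2 TPM in TLSMGCL. Pax8, of the same list, did not pass the filter on low values and was not tested. It was at 0.165 to 0.613 TPM in TLSMGC and at 0 in all 3 TLSMGCL libraries. Of 5 tested lateral plate and limb field genes 1 fell with LDN, Foxf1, and the sum of the list went from 18.1 to 28.5 TPM to 9.00 to 15.4 TPM. Of these 5 genes 2 rose with Matrigel and none fell, while 1 rose and 1 fell with CHIR. From 96h to Gastruloid 4 of them fell. From 96h to TLSMG 1 rose and 1 fell, and to TLSMGC 1 rose and 3 fell, while Hoxd8 and Hoxd9 rose in both. Of the same list Hand1 was at 0.523 to 1.09 TPM in TLSMGC and 0 in TLSMGCL (log2 difference -0.81, adjusted p = 0.556), and at 0 in Gastruloid too, while Tbx4 was at most 0.0408 TPM in TLSMGC and 0 in TLSMGCL. Of 9 endothelial genes 3 fell with LDN, from 25.1 to 84.5 TPM to 12.8 to 21.2 TPM, and 1 of 9 neural tube and 1 of 12 presomitic and tailbud genes fell. The part of these cell types in the HoxD results was not tested.

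The genes whose pattern was most like that of each HoxD gene were found by Pearson's r of log2(TPM + 1) over the 15 libraries, which fall into 5 groups. For Hoxd1 they were Pcdh19 (r = 0.991), Pglyrp3 (r = 0.983) and Lef1 (r = 0.979), and Lef1 stood at 329.0 TPM at 96 h and 56.9 TPM in Gastruloid. For Hoxd8 they were Grem1 (r = 0.936), Snx24 (r = 0.936) and Tspan12 (r = 0.934). Grem1, a secreted BMP antagonist, had means of 0.0648 TPM at 96 h and 0.129 TPM in Gastruloid. Its means were 4.09 TPM in TLSMG, 2.26 TPM in TLSMGC and 0.108 TPM in TLSMGCL. The group means of Snx24 ran from 9.00 to 13.2 TPM and those of Tspan12 from 12.9 to 23.3 TPM. For Hoxd9 they were Snx5 (r = 0.956), Mtx2 (r = 0.93) and Gm9892 (r = 0.929). Those of Hoxd3 (Ptpn23, r = 0.936, Ganab and Gm5780) and Hoxd4 (Tor1b, r = 0.837, Flywch2 and Trp53rkb) are given for completeness, since both levels are uncertain. Between members r was 0.76 for Hoxd1 and Hoxd3, 0.559 for Hoxd8 and Hoxd9 and -0.37 for Hoxd1 and Hoxd8.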

How the data were processed

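Bulk libraries were mRNA libraries from a stranded kit, sequenced as paired-end reads, per the labels' protocols. The submitters' processing notes name cutadapt 2.4, STAR 2.7.3a, StringTie 2.0 and mm10. The deposited TPM and FPKM values and the coverage (mean read depth over exons) came as 1 gene table per library with these columns, per the file headers. Lines of 1 gene ID were summed, and the Hoxd4 ID with the higher mean was tested. Coverage per unit of FPKM, which follows depth, was 3.12 to 6.84, and without counts no detection limit was computed.

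All 5 groups entered 1 limma 3.58.1 fit (R 4.3.3, trended prior) on log2(TPM + 1), for genes with a mean of at least 1 TPM. P-values are two-sided, adjusted within each of 7 comparisons. The script was tested on simulated data. Python 3.11.15, pandas 2.3.3 and numpy 2.4.6 served the rest. All 6 genes are named in every comparison, likeness names the top 3 genes per member, and lists of regulators, paralogs and cell type markers are counted. The members and lists were chosen with earlier results of these data known. Sequences and motif shares come from the RefSeq promoter table, in which all 6 genes matched. The list of HOX cofactors is not reported here. The 5 single-cell samples and the NanoString data were not analysed here. Alternatives were other pseudocounts, filters, scalings and fits, a GC and length correction, a replicate block and leaving out each library.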

Additional observations from a re-analysis of the deposited data

How the results depend on the processing

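No HoxD call reversed under any alternative that was run. With LDN 2 HoxD genes and 169 of all genes were called. With only the 2 groups compared in the fit this was 1 HoxD gene and 42 genes, for which fewer samples set the spread. Leaving out each library in turn gave 1 to 2 HoxD genes and 56 to 197 genes there, with 1 HoxD gene without TLSMGC replicate 2, TLSMGCL replicate 1 or TLSMGCL replicate 3. Other counts of HoxD genes called stayed within 1.5 times, and of 910 planned values of single genes 896 kept their side of the threshold, 7 gained it and 7 lost it. Median-of-ratios scaling moved the share of higher among all called genes from 72.9% to 50.9% (TLSMG against 96h), 80% to 51.8% (TLSMG against Gastruloid), 25.5% to 46.8% (CHIR) and 34.3% to 51.2% (LDN), and left the number of HoxD genes called in each direction as it was. Hoxd4 passed between Gastruloid and 96h with the GC and length correction (adjusted p = 0.0491) and, chosen after seeing the data, with both IDs summed (adjusted p = 0.0436). Without 96h replicate 2 it also passed between TLSMG and Gastruloid (adjusted p = 0.0232) and TLSMGC and TLSMG (adjusted p = 0.038), and with only the 2 groups compared it was lost between TLSMGCL and 96h (adjusted p = 0.0931). Libraries with the same replicate number deviated with correlations of -0.18 to 0.10, so no strong deviation was shared by number. Whether libraries of the same number were grown together is not settled by this, and the labels do not say. A replicate block kept 2 HoxD genes called with LDN and 122 of all genes, and changed no HoxD call elsewhere. With no filter on low values the only HoxD gene added under the threshold was Hoxd10, from 96h to TLSMGC, with CHIR and with LDN. Those p-values cannot decide, as Hoxd10 had no spread outside TLSMGC. Few aligned bases limit Hoxd10, and reads that can be divided between overlapping genes limit Hoxd3 and Hoxd4.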

Other observations

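Polycomb and Trithorax genes, which encode the complexes that keep Hox clusters silent or active, were tested as a list of 18. With Matrigel 9 of 18 rose and none fell, where 31.5% of all genes rose and 7.87% fell. Under median-of-ratios scaling 4 of the 18 rose and 2 fell. With CHIR 8 of 18 fell and none rose, where 30.5% of all genes fell and 10.4% rose. Under the other scaling 4 of the 18 fell. With LDN limma called none of the 18, of which 1 was higher and 3 were lower at an unadjusted p under 0.05. From 96h to Gastruloid 2 rose and 6 fell, where 20.8% of all genes rose and 20.5% fell, with a median of -0.04 against 0.00 over all genes. Among the other lists of cell type markers, 8 of 10 pluripotency genes fell with CHIR and 5 of 10 with Matrigel, and none was called with LDN, where 5 were higher at an unadjusted p under 0.05. Of 10 tested somite genes 2 rose and 7 fell with CHIR and 1 rose with LDN. Of 8 gut endoderm genes 5 fell with CHIR and 1 with Matrigel, and none was called by limma with LDN, also at an unadjusted p under 0.05 (0 of 8).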
